A study of Harpegnathos saltator with 27 samples.

Results

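In the antennae of wild-type (WT) Harpegnathos saltator pupae, 200 genes were picked that held their level from D10 to D15 and stood lower at D20 and D25, where D10 is 10 days after puparium formation. They are 200 of 14407 genes counted, taken from the 7374 that met the conditions of the rule. The rule left out odorant, ionotropic and gustatory receptor genes, asked for a WT median of at least 50 normalized counts at D10 and for a D15 median between 0.5 and 2 times the D10 median, and then took the highest scores. The score is the log2 ratio of the lower of the D10 and D15 medians to the higher of the D20 and D25 medians, with 10 added to each. Normalized counts are gene counts divided by a size factor of the library. The fall after D15 in WT antennae is therefore the choice itself and is described here without a test, whereas the orco mutant libraries took no part in the choice.

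The study sequenced polyA RNA of pupal antennae from WT ants and from ants of a CRISPR/Cas9 line mutant for orco, the co-receptor that odorant receptors need, at D10, D15, D20 and D25. There were 3 WT libraries at D10, 4 at each later WT stage and 3 mutant libraries at every stage, 27 in all, in 3 sequencing batches. No agent or transgene was named for either genotype, and the number of antennae or ants behind each library is not given in the sources used here. Totals on genes ran from 3454610 to 52275933 counts per library. The mutation need not remove the transcript. In the WT libraries orco stood at 2562 to 11921 normalized counts at D10 and D15 and at 1960 to 6027 at D20 and D25. In mutants it stood at 3240 to 22416 at D10 and D15 and at 237 to 1288 at D20 and D25.

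As background, the pupal antenna of an insect is built from an epithelium whose cells divide, take on a planar polarity and set aside sensory precursors. Each precursor divides to give neurons and support cells, and the epithelium later stops dividing, shapes its hairs with actin and microtubules and secretes adult cuticle. Steroid (ecdysone) pulses, Notch, Hedgehog and planar polarity signals time and place these steps. Roles given below are those known for the Drosophila genes of the same name, unless another source is named.

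The 200 genes took a larger share of all counts at D10 and D15 than later. Their share of all counts was 6.81 to 9.92% in the 3 WT libraries at D10 and 2.65 to 10.7% in the 4 at D15, against 0.915 to 1.71% at D20 and 0.607 to 1.25% at D25. In mutants the share was 9.32 to 12.1% at D10, 6.95 to 10.2% at D15, 1.14 to 1.54% at D20 and 0.867 to 0.966% at D25, so that every early mutant library lay above every late one. Without bnb, the most abundant of them, the shares were 4.87 to 5.28%, 2.62 to 6.14%, 0.679 to 1.68% and 0.485 to 1.12% in WT and 5.07 to 5.6%, 3.79 to 5.91%, 0.904 to 1.46% and 0.641 to 0.695% in mutants from D10 to D25. In bulk tissue, fewer cells of a type and less RNA per cell cannot be told apart in such a share. With each gene scaled to its highest group mean, the mean over the 200 genes was 0.782 ± 0.0434 (SD, n = 3), 0.765 ± 0.0772 (n = 4), 0.291 ± 0.0837 (n = 4) and 0.261 ± 0.0346 (n = 4) in WT from D10 to D25. The mutant means were 0.795 ± 0.0112, 0.796 ± 0.0528, 0.380 ± 0.0836 and 0.342 ± 0.00227 (SD, n = 3 each).

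**Figure D1:**
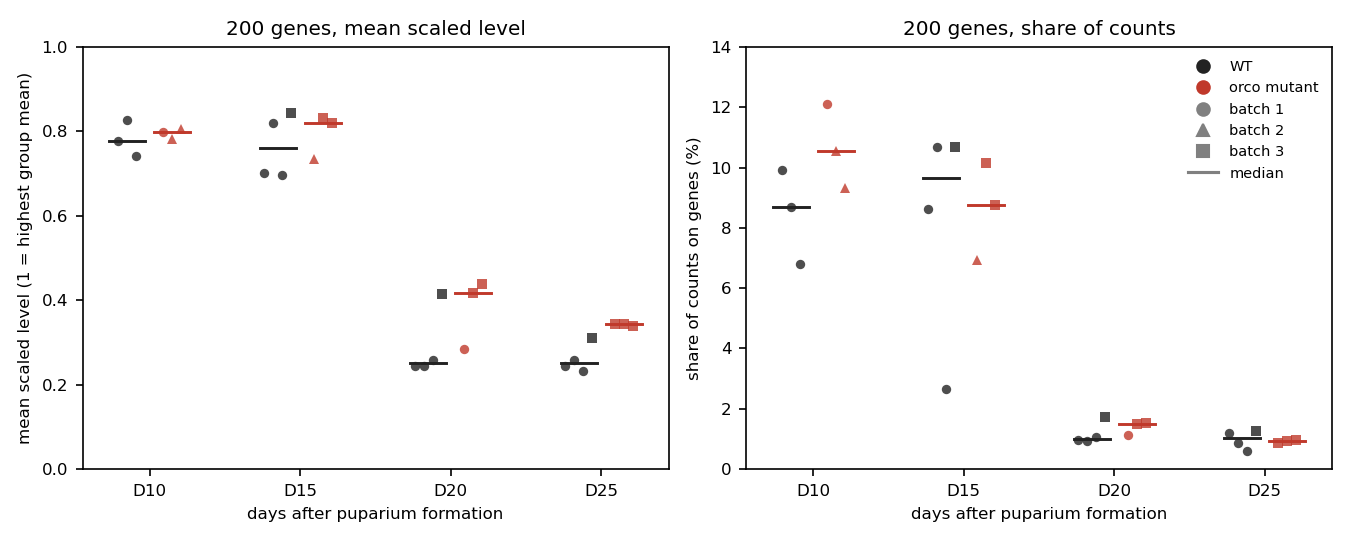
Each point is 1 library, black for WT and red for orco mutants, with its shape giving the sequencing batch and a bar at the group median. The left panel shows the mean scaled level of the 200 genes and the right panel their share of counts in percent, against the stage in days after puparium formation. Both measures are high at D10 and D15 and low at D20 and D25 in both genotypes, and at D20 the batch 3 libraries of both genotypes (0.416 in WT, 0.416 and 0.440 in mutants) lie above those of batch 1 (0.244 to 0.258 in WT, 0.285 in the mutant).

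Few of the genes were switched off in the strict sense, so they are better called early-plateau genes that decline. In WT, 32 of the 200 had medians under 50 at both D20 and D25, and 2 had medians under 10. The later medians were more than 10-fold below the earlier ones for 8 genes, more than 4-fold for 34 and more than 2-fold for 124. The score was at least 4 for 4 genes, 3 to 4 for 6, 2 to 3 for 17, 1 to 2 for 88 and under 1 for 85. At the edge of the list, the 5 last genes had scores of 0.775 to 0.764 and the 5 genes left out next had 0.763 to 0.759, which shows no break there. In mutants the same comparison of medians gave 6, 15 and 58 genes, where the choice by WT medians leans the counts toward fewer.

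Some libraries stood apart. In the third WT library at D15 (batch 1) bnb, the gene with the most reads in nearly all other early libraries, had 4556 normalized counts against 656439 to 832542 in the other 3. That library was the lowest of its group for 112 of the 200 genes (56.0%), against 29.3% of the 11086 genes tested. The fourth WT library at D20 (batch 3) was the highest of its group for 132 of the 200 (66.0%), against 35.9%. Likewise the first mutant library at D20 (batch 1) was the lowest of its group for 148 genes (74%, against 50.4%). Both WT shares rest on values that the rule used, so the choice may lean them, whereas the mutant libraries took no part in it. Choosing the 200 genes again without 1 WT library kept 154 to 186 of them, and without the WT libraries of batch 3 it kept 143.

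The steepest decline belonged to LOC109504445, a protein-coding gene with no symbol in the RefSeq table. In WT it had 40587, 42152 and 21406 normalized counts at D10, 12529, 38647, 4787 and 127952 (D15), 102, 107, 96.0 and 752 (D20), and 21.8, 272, 446 and 127 (D25). In mutants the values were 40741, 82371 and 93717 (D10), 18684, 56915 and 122490 (D15), 59.6, 202 and 259 (D20), and 383, 234 and 184 (D25). No late library of either genotype came near an early one. Between D15 and D20 in mutants it fell by 8.60 (log2, SE 1.42, adjusted p = 0.000185, edgeR quasi-likelihood test with Benjamini-Hochberg adjustment over all genes tested).

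LOC105187383 showed a like course at a lower level. Its mutant values were 4401, 4898 and 7653 (D10), 8663, 14327 and 10659 (D15), 43.5, 96.8 and 210 (D20), and 110, 97.1 and 104 (D25). The WT values at D20 were 41.1, 32.7, 64.0 and 1049, so the batch 3 library alone kept a level above 1000. In mutants between D15 and D20 its level fell by 6.61 (log2, SE 1.09, adjusted p = 0.000183). LOC105187277 fell by 6.23 (SE 0.922, adjusted p = 6.89e-05), from 5254, 5683 and 3129 at D15 in mutants to 45.8, 81.8 and 61.1 at D20. It lies 859 bases from capt, a neighbour that is also among the 200 and is described with the actin genes below.

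bnb (bangles and beads) was the most abundant of the 200 genes. It took 1.94 to 4.71% of all counts in the WT libraries at D10 and 2.84 to 7.05% in the 6 early mutant libraries. The mutant libraries held 1052310, 674688 and 499444 normalized counts at D10, 537802, 727344 and 397063 (D15), 66249, 29166 and 19144 (D20), and 107939, 109533 and 115314 (D25). All 6 late mutant libraries lay below all 6 early ones, and between D15 and D20 the level fell by 3.86 (log2, SE 1.06, adjusted p = 0.0119). The call was lost without the second or the third mutant library at D20 (adjusted p = 0.0535 and 0.0576). bnb remained a strongly expressed gene in late antennae, so the decline was from an extreme level.

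Genes tied to insect hormones stood next in score. dib (disembodied) encodes a cytochrome P450 of ecdysone synthesis. Its values in mutants were 612, 348 and 240 (D10), 679, 768 and 314 (D15), 35.5, 33.1 and 40.7 (D20), and 46.0, 36.3 and 25.3 (D25). In WT it went from 554 to 672 (D10) and 196 to 969 (D15) down to 39.4 to 89.8 (D20) and 43.6 to 96.5 (D25). Between D15 and D20 it fell by 4.02 in mutants (log2, SE 0.539, adjusted p = 2.41e-05).

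Jhbp2, named as a juvenile hormone binding protein, was less uniform. Its mutant values were 4981, 2342 and 2455 (D10), 21370, 3660 and 2211 (D15), 1330, 2965 and 2127 (D20), and 1353, 1244 and 885 (D25). The D15 and D20 values overlapped, and its change of -2.08 (SE 0.735, adjusted p = 0.0490) rested on the first mutant library at D15, without which it was -0.50 (adjusted p = 0.673). Of the 23 genes of the ecdysone list, dib was the only one among the 200. In that list 7 genes were lower and 2 higher in mutants at D20 than at D15, beside 10.8% and 9.35% of genes tested. The median change was -0.16.

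**Figure D2:**
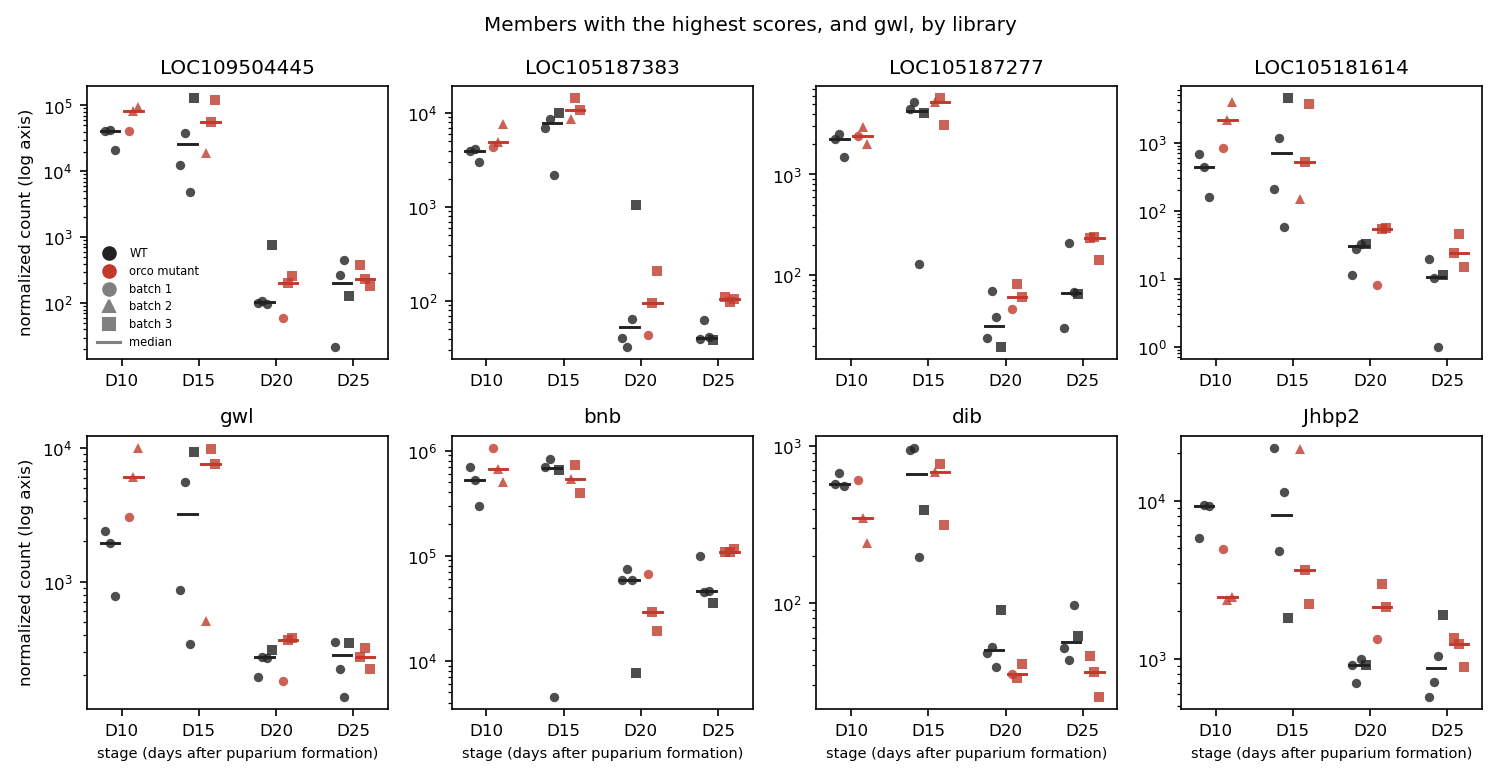
Normalized counts on a log axis for 7 of the 10 genes with the highest scores and for gwl, 1 point per library (black WT, red orco mutant, shape by sequencing batch) with a bar at the group median; the single value of 0, for LOC105181614 in a WT library at D25, is drawn at 1. All panels but Jhbp2 drop between D15 and D20 in the mutants, and bnb at D15 has 1 WT library at 4556.

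The remaining genes of the top 10 by score were LOC105181368, LOC105188891, LOC105192041 and LOC105181614. From D15 to D20 in mutants LOC105181368 fell by 3.51 (log2, SE 0.739, adjusted p = 0.00166), LOC105188891 fell by 4.59 (SE 0.953, adjusted p = 0.00146) and LOC105181614 fell by 5.24 (SE 1.32, adjusted p = 0.00646, and 0.0731 without the third mutant library at D15). LOC105192041 changed by -1.27 (SE 0.690, adjusted p = 0.212), with D20 values of 110, 245 and 466 against 238, 807 and 878 at D15. Its D25 values of 36.4, 83.3 and 73.4 lay below every earlier mutant library.

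Across the 200 genes, many were lower in mutants after D15 as well. The score computed from mutant medians had a median of 0.61 over the 200 genes, against 1.08 for the WT score that chose them. It was below the WT score for 172 genes, and the choice by WT scores leans this comparison toward lower scores in mutants. The mutant score was at least 1 for 53 of the 200 (26.5%), against 3.64% of genes tested. Between D15 and D20, 97 of the 200 were lower in mutants (48.5%, against 10.8% of the 11086 genes tested) and 0 were higher (against 9.35%). The genes tested include the receptor genes that the rule left out. Of these, the study reports that odorant receptor genes fell in mutants over this step. Before adjustment, 126 had an edgeR p under 0.05, against 3572 of genes tested. The estimate was above 0 for 7 of the 200. The median change was -1.10 on the log2 scale, with a range of -1.79 to -0.63 for the middle of the list (lower to upper quartile), while the median of all genes tested was -0.04. The libraries were separate samples by their labels, but nothing says that they came from separate animals or colonies. The p-values therefore rest on the spread between libraries, estimated over all 27 in 8 groups. It is not known to be a spread between animals or colonies.

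Falls in mutants were larger in the bands of higher WT score. With a score of at least 3, 9 of 10 genes were called lower in mutants between D15 and D20 and the median change was -4.31. For scores of 2 to 3 it was 11 of 17 genes with a median of -2.60, for 1 to 2 it was 42 of 88 with -1.12, and for scores under 1 it was 35 of 85 with -0.89. Every gene with a score of at least 2 had an estimate below 0 in mutants.

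**Figure D3:**
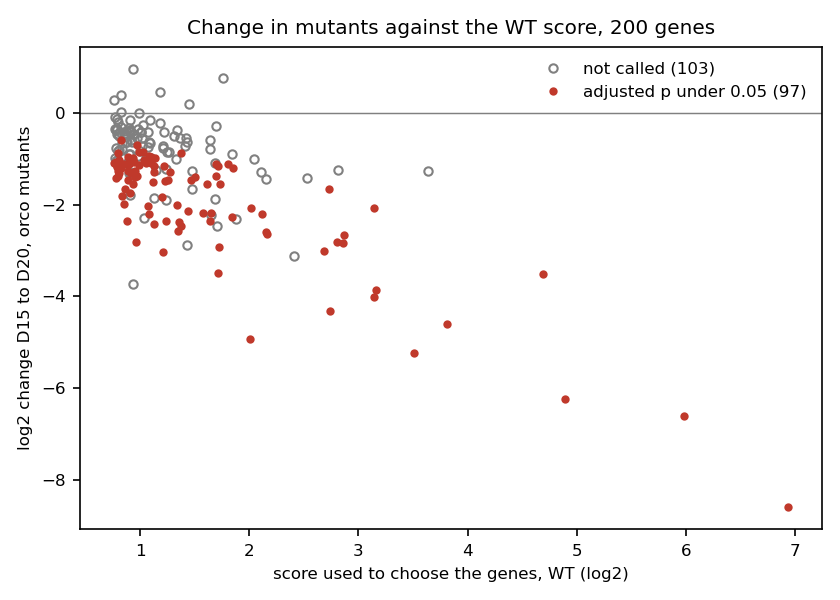
Each point is 1 of the 200 genes, placed by its score in WT (log2, the value that chose it) and by its log2 change from D15 to D20 in orco mutants, which the choice did not use. Filled red points are the 97 genes with an adjusted p under 0.05 and open grey points the other 103. The 4 genes with scores above 4 lie between -8.60 and -3.51, and 7 genes with scores under 2 lie above 0.

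Separation of single libraries gave a like picture. In mutants, every D20 and D25 library lay below every D10 and D15 library for 90 of the 200 genes (45.0%), against 7.44% of all genes tested. All D20 libraries were below all D15 libraries for 118 genes (59.0%, against 17.4%), and all D25 libraries were below all D15 libraries for 150 (75%, against 23.8%). The ratio of D15 to D10 medians in mutants stayed within 0.5 to 2 for 174 of the 200 (87.0%), against 77.9% of genes tested.

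Within the mutants, few of the 200 genes were called outside the step from D15 to D20 in the fit without batch. Between D10 and D15, 5 genes were lower (2.50%, against 4.60% of genes tested) and 1 was higher (0.5%, against 5.71%), with a median change of -0.08. Between D20 and D25, 5 were lower (2.50%, against 1.62%) and 3 higher (1.5%, against 1.73%), with a median of -0.12. Both small counts depended on the fit. With batch as a term they became 25 lower and 1 higher between D10 and D15, against 902 and 986 of the 11086 genes tested. Between D20 and D25 they became 25 lower and 5 higher, against 441 and 456. In batch 3 alone the counts from D20 to D25 were 56 lower and 23 higher, against 1359 and 1218. The 3 genes called higher at D25 than at D20 in mutants were ck, mdu and Glyp, with changes of 1.55, 1.53 and 1.24, and these calls were lost in 3, 6 and 4 of the 6 fits that left out 1 library.

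Members with roles in cell division and DNA repair formed 1 group, picked out by their symbols after the values were seen apart from polo. gwl (greatwall) is a mitotic kinase. Its mutant values were 3017, 6026 and 9934 (D10), 507, 9775 and 7602 (D15), 182, 363 and 377 (D20), and 272, 317 and 220 (D25), so that it fell by 4.32 (log2) between D15 and D20 (adjusted p = 0.0033). The gene model of LOC105181614 overlaps that of gwl by 139 bases, and LOC105181613 lies 402 bases on its other side. Reads were counted without strand, so counts of overlapping genes are uncertain. The libraries low in gwl at D15 were low in LOC105181614 too, with 147 in the first mutant library against 518 and 3779 in the others.

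rod (rough deal), a kinetochore protein, had 520, 486 and 528 normalized counts in mutants at D10, 294, 269 and 309 (D15), 124, 164 and 123 (D20), and 118, 145 and 133 (D25). It fell between D15 and D20 (log2 change -1.10, adjusted p = 0.0049), and in all 6 fits that left out 1 of these libraries. Its change from D10 to D15 was -0.87 (adjusted p = 0.0391), a call that was lost without any single library of these stages (adjusted p up to 0.158). Spindly, which brings dynein to kinetochores, changed by -1.11 between D10 and D15 (adjusted p = 0.0137), a call that was lost without the first mutant library at D10 or at D15 (adjusted p up to 0.0900), and by -0.40 between D15 and D20 (adjusted p = 0.32). polo, the mitotic kinase, had 484, 679 and 577 at D15 and 297, 374 and 511 at D20 in mutants (-0.58, SE 0.310, adjusted p = 0.202). The DNA repair genes tefu (the ATM kinase) and mus301 (a helicase) were lower at D20 than at D15, with changes of -1.19 (adjusted p = 0.0015) and -1.16 (adjusted p = 0.00085). Other members known for repair or replication did not pass, with changes of -0.46 for DNApol-theta (adjusted p = 0.552), -0.81 for the DNA glycosylase Nthl1 (adjusted p = 0.0852) and -0.34 for DNApol-alpha73 (adjusted p = 0.171). In the list of cell division genes, 16 of 29 tested were lower in mutants at D15 than at D10 (against 4.60% of genes tested). At D20 against D15, 6 were lower (against 10.8%) and 1 higher (against 9.35%). The only gene of this list among the 200 was polo.

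Signalling genes came next. hh, the Hedgehog ligand, had 755, 868 and 1230 normalized counts in mutants at D10, 428, 990 and 986 (D15), 183, 184 and 175 (D20), and 246, 203 and 216 (D25). No late mutant library reached an early one, and the level fell by 2.17 between D15 and D20 (log2, SE 0.491, adjusted p = 0.00299). In the list of Wnt and Hedgehog genes, 6 of 19 were lower and 0 higher over this step, with a median of -0.62. The shares of all genes tested were 10.8% and 9.35%.

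fng (fringe), a glycosyltransferase that alters how Notch meets its ligands, had 6169, 5980 and 3677 at D15 and 537, 1798 and 2806 at D20 in mutants. Its change of -1.65 missed the threshold (SE 0.616, adjusted p = 0.0630) and passed it with batch as a term (adjusted p = 0.0308). emc (extra macrochaetae), which holds back proneural factors, had 5538, 3721 and 3625 at D15 and 2397, 3874 and 2842 at D20 in mutants (-0.51, SE 0.269, adjusted p = 0.199). At D25 emc stood at 4953, 5104 and 4638, and its change from D20 did not pass either (0.72, SE 0.269, adjusted p = 0.165). Of 18 tested genes of the Notch list, 4 were lower and 0 higher between D15 and D20, with a median of -0.33. Over all genes tested, 10.8% were lower and 9.35% higher.

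Planar polarity and actin genes gave 4 members by the lists. stan (starry night, also called flamingo) is the atypical cadherin that links polarity complexes of neighbouring cells. Its mutant values were 5888, 10547 and 13619 (D10), 7423, 11121 and 18953 (D15), 402, 2100 and 2283 (D20), and 1342, 1164 and 1000 (D25), so that it fell by 3.00 between D15 and D20 (SE 0.861, adjusted p = 0.0157). Without the third library at D15 or the first at D20 the adjusted p was 0.0578 and 0.0675. dgo (diego), another core polarity protein, went from 1196, 2367 and 2067 at D15 to 628, 1033 and 1027 at D20 in mutants, so that it fell by 1.09 (SE 0.318, adjusted p = 0.0172). That call was lost without any of 3 single libraries (adjusted p up to 0.0866).

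ck (crinkled), a myosin VIIA needed for the shape of hairs and bristles, had the clearest fall of the 4. Its mutant libraries held 4595, 2558 and 2630 (D15), 316, 672 and 664 (D20), and 1838, 1662 and 1246 (D25). It fell by 2.58 (SE 0.362, adjusted p = 3.91e-05) and then changed by 1.55 from D20 to D25 (SE 0.350, adjusted p = 0.0158), where the later call was lost in 3 of the 6 fits that left out 1 library (adjusted p up to 0.0714). tsr (twinstar, cofilin), which severs actin filaments, went from 7253, 10459 and 10260 at D15 to 6208, 3763 and 3832 at D20 in mutants, so that it fell by 1.03 (SE 0.328, adjusted p = 0.0297), a call that was lost without any of 4 single libraries (adjusted p up to 0.113). Over the 33 genes of the planar polarity and actin list, 5 were lower and 1 higher between D15 and D20, with a median of -0.24. Among all genes tested, 10.8% were lower and 9.35% higher.

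A further 5 members with cytoskeletal roles were picked after their values were seen, 4 of them from the genes called lower, so their count is no measure of such genes. capt, a partner of cofilin that recycles actin, had 3893, 5927 and 4928 (D15) and 1837, 2939 and 3026 (D20) in mutants (log2 change -0.94, adjusted p = 0.023). cib (ciboulot), which binds actin monomers, had 21020, 26817 and 18419 (D15) and 9890, 10323 and 10673 (D20) (-1.12, adjusted p = 0.028). Jupiter, a microtubule-associated protein, changed by -1.46 (adjusted p = 0.0033), and IFT46, a part of the transport that builds cilia, by -1.99 (adjusted p = 0.000104). For each of these 4 no late mutant library overlapped an early one. The calls of capt and cib were lost in 3 and 4 of the 6 fits that left out 1 mutant library of these stages (adjusted p up to 0.106 and 0.104). The fifth, the unconventional myosin dachs, did not pass (-0.41, adjusted p = 0.599).

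**Figure D4:**
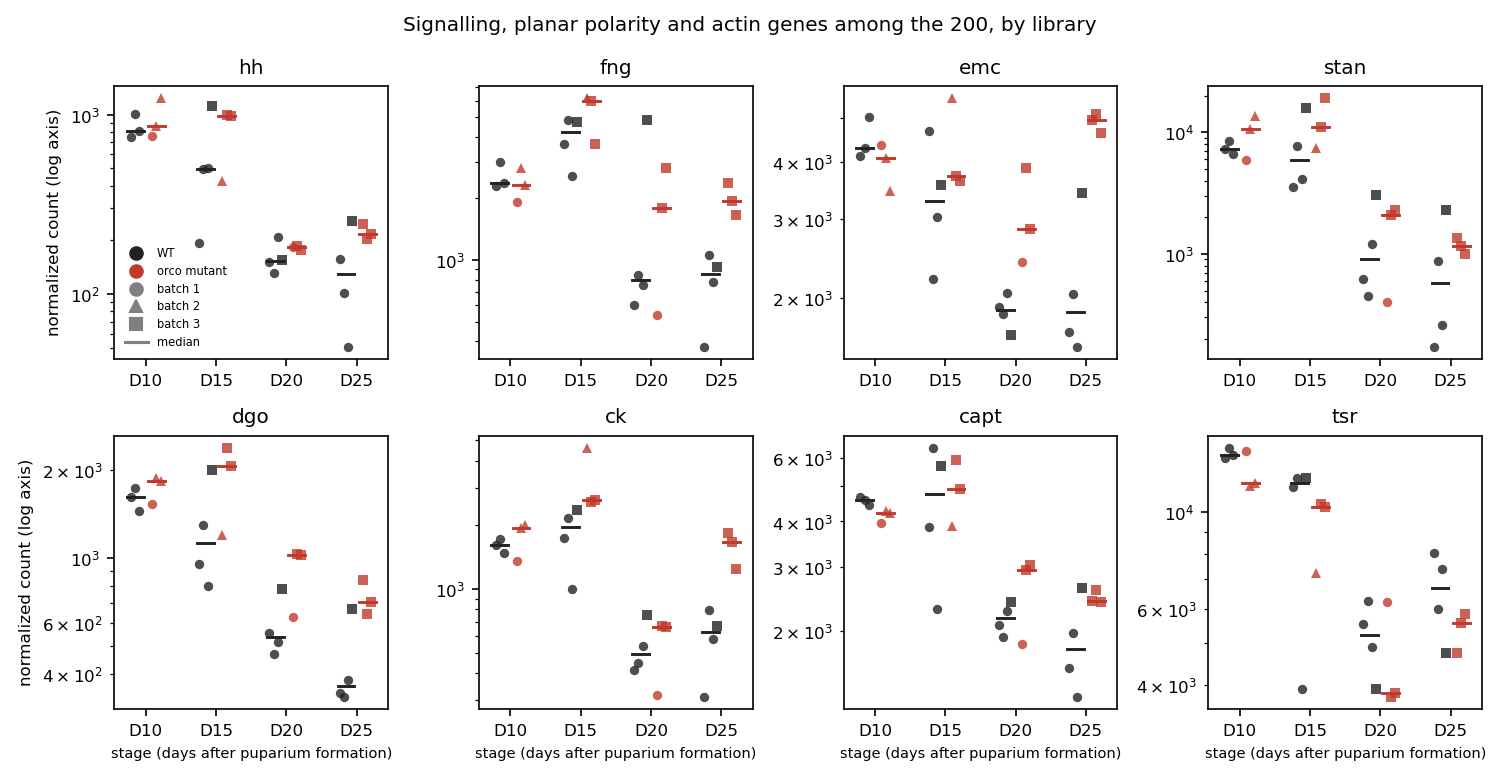
Normalized counts on a log axis for hh, fng, emc, stan, dgo, ck, capt and tsr, 1 point per library (black WT, red orco mutant, shape by sequencing batch) with a bar at the group median. In mutants hh, stan, dgo, capt and tsr lie below their D15 values at D25, whereas ck and emc stand higher at D25 than at D20 in mutants. In fng, WT at D20 has 1 batch 3 library at 4854 beside 602 to 847 in batch 1.

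The transcription factors and the junction gene of the lists did not pass the threshold in mutants between D15 and D20. Eyg (eyegone), a Pax factor, had 433, 1521 and 2687 at D20 against 2451, 4430 and 4120 at D15 (-1.28, SE 0.661, adjusted p = 0.188). vvl (ventral veins lacking), a POU factor, had 653, 2304 and 2079 against 1564, 3955 and 3292 (-0.84, SE 0.467, adjusted p = 0.223). Inx3, a gap junction innexin, had 1908, 6642 and 7408 against 2654, 14357 and 15863 (-1.08, SE 0.686, adjusted p = 0.295). In all 3 the low D20 value was the library of batch 1. Within batch 3 each of the 3 was lower at D20, with log2 changes of -1.02, -0.73 and -1.11 (adjusted p = 0.0227, 0.0288 and 0.00135, 2 libraries a stage). mirr (mirror), an Iroquois factor, was weakly expressed, at 33.2 to 71.2 in mutants at D20 (-0.19, SE 0.653, adjusted p = 0.876).

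Other gene lists were counted over the same step, and of their genes only vvl, which the tracheal list also holds, was among the 200. Of all genes tested, 10.8% were lower and 9.35% higher over this step. In the chitin and cuticle list 13 of 19 genes were higher and 0 lower in mutants at D20 than at D15, with a median of 2.52. In the axon guidance and adhesion list 3 of 34 were lower and 1 higher, with a median of -0.28. In the list of zona pellucida domain proteins of the apical matrix, 4 of 10 were lower and 0 higher, with a median of -0.99. For other cell types, 0 genes were lower in the lists of hemocytes, fat body, tracheae, muscle and glia, and 1 of 3, 0 of 3, 2 of 5, 3 of 10 and 0 of 5 were higher.

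Among members with at least 100 normalized counts in early mutants, the 5 with the largest falls between D15 and D20 were LOC109504445, LOC105187383, LOC105187277, LOC105181614 and LOC105190087, of which the last fell by 4.94 (SE 1.13, adjusted p = 0.00337). At the other end stood bma, LOC109504587, Ae2, LOC105183069 and Exn, with changes of 0.77, 0.47, 0.38, 0.19 and 0.02, none past the threshold (adjusted p 0.586 to 0.987). bma had 4.58, 593 and 1405 in the 3 mutant libraries at D20 and 31.1, 42.4, 33.2 and 1734 in the WT libraries, so that only batch 3 libraries were high. By D25 the mutant values of bma were 77.7, 38.2 and 60.4.

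The genotypes were then set against each other at each stage. Because the WT libraries chose the genes, the choice leans these differences toward lower in mutants at D10 and D15 and toward higher at D20 and D25. The genes tested include odorant receptor genes, which the rule left out and which the study reports as low in mutants at D20 and D25. Their lower shares are therefore not of like genes. At D10, 0 of the 200 were lower (against 0.0271% of genes tested) and 0 higher (against 0.171%) by edgeR. Before adjustment 7 had an edgeR p under 0.05, against 619 of the 11086 genes tested. DESeq2 called 0 of the 200, against 35 lower and 137 higher over genes tested. At D15 edgeR called 0 lower (against 0.00902%) and 0 higher. Before adjustment 15 had an edgeR p under 0.05, against 1064 of genes tested. DESeq2 called 2 lower and 1 higher, against 76 and 18. The median differences were -0.01 and 0.07 on the log2 scale.

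At D20, 3 of the 200 were higher in mutants (1.5%, against 0.749% of genes tested) and 1 was lower (0.5%, against 3.99%), and the median difference was 0.29 against -0.01 for all genes tested. This difference moved with the sequencing batch. The 3 mutant libraries at D20 were 1 of batch 1 and 2 of batch 3, the 4 WT libraries 3 of batch 1 and 1 of batch 3. Every batch 3 library at D20 lay above every batch 1 library, whatever the genotype, for 93 of the 200 genes (46.5%, against 22.9% of genes tested). The rule used WT medians at D20, and 3 of those 4 libraries were of batch 1, so the choice leans this share upward. The median difference was 0.08 within batch 1 and 0.08 within batch 3. With batch as a term it was 0.11, with 2 genes higher and 3 lower, against 69 and 520 of the 11086 genes tested. Leaving out the fourth WT library gave 18 higher and 0 lower, against 264 and 455 of genes tested. Leaving out any other library gave 1 to 7 calls in all, against 18 to 188 higher and 305 to 471 lower.

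Cell type markers were compared along the same split. Of 10 markers (4 of neurons, and 1 each of ammonia and mechanosensory neurons, glia, muscle, epithelium and support cells), 3 were higher in every batch 3 library than in every batch 1 library at D20 and 0 lower, beside the 22.9% of genes tested that were higher. The 3 were grh (epithelium), sv (support cells) and repo (glia), and none of the 10 was at 0 in any D20 library. grh stood at 907, 1072 and 1460 in batch 1 WT, 1487 in the batch 1 mutant, 7309 in the batch 3 WT library and 11520 and 14373 in the batch 3 mutants. The sum of the 10 markers was 9355 to 27408 in batch 1 and 27720 to 32188 in batch 3. The lowest sum of batch 1 was that of its only mutant library at D20. The part of the markers in the difference at D20 was not tested.

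**Figure D5:**
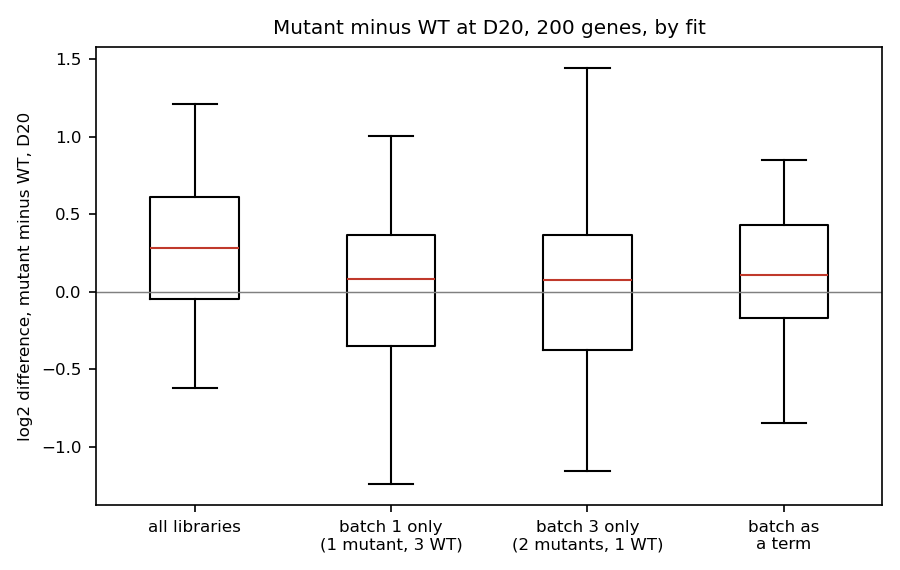
Boxes show the log2 difference between mutants and WT at D20 over the 200 genes (line at the median, box from the lower to the upper quartile, whiskers from the 5th to the 95th percentile) in fits to all libraries, to batch 1, to batch 3 and with batch as a term. The median is 0.29 with all libraries and 0.08, 0.08 and 0.11 in the other fits.

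LOC105183069 was the gene with the largest of these calls at D20. It had 3615, 9674 and 6086 normalized counts in mutants and 804, 636, 1131 and 2096 in WT, with no overlap, a difference of 2.44 on the log2 scale (SE 0.574, adjusted p = 0.0117). The difference was 2.04 within batch 1 (adjusted p = 0.190, 1 mutant library) and 1.87 within batch 3 (adjusted p = 0.0341, 1 WT library), and without the second mutant library it was 2.03 (adjusted p = 0.0884). In mutants this gene kept its D15 level at D20 (4476, 6938 and 5206 at D15) and was lower at D25 (1385, 1327 and 1129, where the change was -2.30, SE 0.633, adjusted p = 0.0459, a call that was lost in 5 of the 6 fits that left out 1 library). LOC105182446 and DNApol-alpha73, a subunit of the replicative polymerase, differed by 0.62 (SE 0.171, adjusted p = 0.0388) and 0.54 (SE 0.157, adjusted p = 0.0494), and both calls were lost in 5 and 6 of the 7 fits that left out 1 library. In fits to batch 1, to batch 3 and with batch as a term the difference was 0.43, 0.51 and 0.56 for LOC105182446 and 0.52, 0.26 and 0.52 for DNApol-alpha73, none past the threshold, where batch 1 holds 1 mutant library and batch 3 holds 1 WT library. Ggamma30A, a G protein gamma subunit known from fly photoreceptors, was lower, with 710, 1053 and 955 in mutants against 1532, 1688, 2122 and 3101 in WT (-1.25, SE 0.315, adjusted p = 0.0194, and 0.0696 without the fourth WT library).

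At D25, 14 of the 200 genes were higher in mutants (7%, against 5.18% of genes tested) and 4 were lower (2.00%, against 11.3%), with a median difference of 0.38. All 3 mutant libraries at D25 and 1 of 4 WT libraries were of batch 3. Within batch 3, with 1 WT library, the median difference was 0.04. With batch as a term it was -0.0026, with 3 higher and 6 lower, against 292 and 639 of the 11086 genes tested. Without the fourth WT library 33 were higher and 6 lower, against 1639 and 2340 of genes tested. Without the first, 9 were higher and 1 lower (against 207 and 735), and without the third 8 and 2 (against 220 and 709). Leaving out the first, the second or the third mutant library gave 6, 4 and 7 higher and 1, 1 and 2 lower. Over all genes tested, those fits gave 171, 191 and 221 higher and 536, 573 and 673 lower.

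Among the genes called at D25, emc had 4953, 5104 and 4638 in mutants and 1685, 2036, 1558 and 3414 in WT, a difference of 1.17 (SE 0.249, adjusted p = 0.00343). The high WT value is the library of batch 3, and within that batch the difference was 0.48 (adjusted p = 0.159). ck had 1838, 1662 and 1246 in mutants and 311, 792, 584 and 666 in WT, where the batch 3 library was not the highest, and differed by 1.42 (SE 0.320, adjusted p = 0.00499). LOC105184817 had 1674, 1770 and 1650 against 534, 663, 588 and 567, a difference of 1.52 (SE 0.392, adjusted p = 0.0126, and 0.114 with batch as a term). In these 3 genes every mutant library lay above every WT library.

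G6577 and LOC105188089 were the other 2 of the 5 higher genes with the smallest p (1.54, SE 0.388, adjusted p = 0.0114, and 0.58, SE 0.149, adjusted p = 0.0124). Both calls were lost without the second mutant library (adjusted p = 0.0507 and 0.0732), and that of G6577 also without the third (0.0541). Glyp, glycogen phosphorylase and named after its values were seen, had 1281, 1390 and 1272 in mutants and 445, 1067, 736 and 397 in WT (0.99, SE 0.258, adjusted p = 0.0142), a call that was lost in 2 of 7 fits without 1 library (adjusted p up to 0.0559). The 4 lower genes were LOC112590077 (-1.72, SE 0.396, adjusted p = 0.00596), LOC105181607 (-1.38, SE 0.404, adjusted p = 0.0256), IFT46 (-0.97, SE 0.288, adjusted p = 0.0270) and LOC105181613 (-0.68, SE 0.207, adjusted p = 0.0300). LOC112590077 had 17.3, 28.4 and 33.4 in mutants and 99, 66.7, 129 and 60.0 in WT, with no overlap. Within batch 3, with 1 WT library, the differences were -1.23, -0.58, -0.74 and -0.64 and none passed the threshold. The calls of IFT46 and LOC105181613 were each lost in 5 of the 7 fits that left out 1 library, and that of LOC105181607 in 4.

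Of the 200 genes that stood in the RefSeq annotation, 183 were protein coding, 8 were long noncoding RNAs and 1 was a pseudogene. Another 8 were not listed there, and 67 had a symbol (33.5%, against 36.0% of genes tested). Their median span on the genome was 8175 bases, against 4554 for genes tested. In the order of the RefSeq table, 21 of them lay next to another member, in 11 neighbouring pairs, among them tefu and lili (412 bases apart) and MFS3 and LOC105183336 (789 bases apart). The number of such pairs among other genes was not computed. Of these pairs 2 overlapped, that of gwl and LOC105181614 and that of LOC105182313 and LOC105182314.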

How the data were processed

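PolyA RNA of antennae was made into libraries, and per the study's methods reads were mapped and counted over gene models with STAR 2.6.1d, after the longer reads of 1 sequencing batch were trimmed. The deposited files hold raw counts per gene, read from the column without strand, and a table of counts the authors normalized with DESeq2 1.34.0 size factors, a depth-scaled signal. The largest difference from recomputed values was 7.45e-08. Rows of STAR totals stayed out (unmapped reads 2.86 to 33.2% of a library, ambiguous reads 1.36 to 4.13%).

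The 200 genes were found from the WT medians of the normalized values. Tests used edgeR 4.0.16 in R 4.3.3 (quasi-likelihood F test, TMM factors, 27 libraries in 8 groups, no covariate, 11086 genes averaging 10 or more counts over the libraries, Benjamini-Hochberg adjustment, threshold 0.05, two-sided). The SE is the absolute log2 change divided by the square root of F. The steps were tested on simulated data. Alternatives were DESeq2 1.42.0, other scalings and filters, batch as a term, single batches, the replicate number as a block and each library left out. Fits to batch 1 alone, and to batch 3 alone between genotypes, were chosen after seeing the data. RefSeq (Hsal_v8.6) gave symbols for 4090 genes, and gene spans and neighbours.

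The genes described, the gene lists and the tests were chosen with earlier results of these data known. Named genes were the 10 highest scores, members of the lists, the 5 largest and 5 smallest falls in mutants between D15 and D20 at a level of at least 100, those with the smallest p between genotypes and the edge of the list. Others are said to be named after their values were seen. Counts cover sampling of reads only, and depth per library ran from 3454610 to 52275933.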

Additional observations from a re-analysis of the deposited data

Results flagged for a closer look

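In groups of 4 WT libraries, 120 sets of values were examined for 1 library far from the other 3, and 19 had one. The sets share the same libraries, which the rule also used, and are not independent, so this count cannot be set against a chance rate. At D20 the fourth library (batch 3) stood apart in most of them. There the mean scaled level of the 200 genes was 0.416, and the normalized counts were 752 for LOC109504445, 1049 for LOC105187383, 535 for LOC105181368, 4854 for fng, 403 for polo, 4043 for Eyg, 1017 for vvl, 4482 for Inx3, 1383 for Exn, 16214 for LOC109504587 and 1734 for bma, each above the other 3 libraries.

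At D15 the third library stood apart for tsr, with 3915 and below the others, and for Exn, with 5241 and above them, and the first library for LOC105181607, with 1201. At D25 the library apart was the second for LOC105187383, with 62.8, the first for bnb, with 100132, and the fourth for dgo, with 671, and for LOC105183069, with 3671, all above the others. No gene of the 200 had every WT library fall and every mutant library rise between D15 and D20.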

How the results depend on the processing

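The 97 calls in mutants between D15 and D20 became 74 to 90 without 1 library. They became 105 with the replicate number as a block, 112 with batch as a term and 117 with DESeq2, all lower. Over genes tested, these fits gave 1291, 1348 and 1486 lower and 1134, 1110 and 1308 higher. Library size alone gave 168 and moved the median of all genes by -0.87. In batch 3 alone 127 of the 200 were lower and 2 higher, against 1918 and 2178 of the 11086 genes tested. Of the 97, 55 were called in every fit run. For D10 to D15, the 6 calls became 3 by library size, 26 with batch, 11 in mutant libraries only, 12 with DESeq2 and 0 to 9 without 1 library. Over genes tested, mutant libraries only gave 431 lower and 724 higher, and DESeq2 745 and 1223. For D20 to D25, the 8 calls became 71 by library size (where all genes moved by -0.79), 30 with batch and 14 with the block. They became 22 in mutant libraries only, 79 in batch 3, 23 with DESeq2 and 1 to 5 without 1 library. Over genes tested, library size gave 4873 lower and 152 higher, and the block 232 and 299. Mutant libraries only gave 351 and 350, and DESeq2 404 and 413. Between genotypes at D15, DESeq2 gave 3. At D20, the 4 calls became 0 by library size, 2 with no filter, 17 with the block, 13 in batch 3, 0 in batch 1, 11 with DESeq2 and 1 to 18 without 1 library. At D25, the 18 calls became 31 by library size (all genes moved by -0.63), 9 with batch, 53 with the block and 5 to 39 without 1 library. With the block 47 were higher and 6 lower, against 1604 and 2000 of the 11086 genes tested. By library size 0 were higher and 31 lower, against 59 and 4610. Libraries with equal replicate numbers had deviations that correlated at -0.41 to 0.50. Libraries with unlike numbers were not compared, so these values cannot tell whether the numbers pair the samples.

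Some changes between D15 and D20 in mutants that were not called turned sign. By library size Exn was -0.80, LOC105183069 -0.62, Ae2 -0.43, LOC109504587 -0.33 and bma -0.0548. Exn was also -0.0557 with batch and -0.0436 with the block. Without 1 library the ranges were -0.39 to 0.0686 for mirr, -0.24 to 0.36 for Exn, -0.21 to 0.47 for LOC105183069, -0.21 to 0.91 for Ae2 and -0.37 to 1.42 for bma. The difference between genotypes of LOC105188089 at D25 was -0.0182 by library size. The cause was not tested. Batch 2 holds only mutants, at D10 and D15, where the median change of the 200 genes was -0.43.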
